A study of Mus musculus with 16 samples.

Results

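Cholesterol and fatty acid synthesis in mouse embryonic stem (ES) cells was described through 31 genes, looked up by symbol in each of 3 expression tables of the series. All 31 were listed and tested in every table, out of 24320 gene names in the Pml table and 24394 in each of the other tables. The list held 7 enzymes of the mevalonate and isoprenoid steps (Hmgcs1, Mvk, Pmvk, Mvd, Idi1, Fdps, Acat2) and 10 enzymes from squalene to cholesterol (Fdft1, Sqle, Lss, Cyp51, Tm7sf2, Nsdhl, Hsd17b7, Ebp, Sc5d, Dhcr7). It also held 6 regulators and transport genes (Srebf1, Srebf2, Scap, Insig1, Insig2, Stard4), 4 fatty acid synthesis enzymes (Acly, Acaca, Fasn, Elovl6) and 4 desaturases (Scd1, Scd2, Fads1, Fads2).

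These genes are known for their common control by SREBP transcription factors, which are made from Srebf1 and Srebf2 as precursors held in the endoplasmic reticulum membrane. The SCAP protein carries the precursors to the Golgi, where proteases free the active factor, and INSIG proteins hold SCAP back when sterols are plentiful. Insig1 is itself a target of the pathway, so its transcript is widely used as a readout of SREBP activity. Enzyme activity, sterols and SREBP cleavage were not measured in this series.

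According to its title, the series concerns control of the Lefty genes by TRIM33 at PML nuclear bodies. RNA-seq libraries came from ES cells labelled E14Tg2a.IV, strain C57BL/6, cultured without feeders in serum medium with LIF, and there were 16 libraries in 8 groups of 2. The growth protocol also names a CCE line without tying it to samples. The Pml table held 2 wild-type and 2 Pml-knockout libraries, with the treatment label untreated. The arsenite table held 2 untreated libraries and 2 from cells given 200 µM sodium arsenite, a stressor that acts on protein thiols, all wild type. The Trim33 table held 8 libraries labelled wild type or Trim33 knockout, 2 each with 50 ng/ml activin A, the ligand that activates SMAD2 and SMAD3, and 2 each with 10 µM SB431542, an inhibitor of its receptors. Treatments lasted 2 h. The labels do not say how the knockouts were made, how many clones they represent, or whether replicates were separate cultures, so p-values measure the spread between these libraries, which may be technical.

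Promoter sequence was available from RefSeq (GRCm38.p6) for 24 of the 31 genes, as 300-base windows from 250 bases before to 50 after the start. The motifs searched on both strands were an SRE-like element (TCACNCCAC), an E-box (CACGTG) and the NF-Y box (CCAAT). The SRE-like letters were in 1 of the 24 windows, that of Hmgcs1, against 1.44% of 27025 genes. The E-box was in 5 (20.8%, against 8.09% of all genes). CCAAT was in 19 (79.2%, against 41.06%), and at least 2 copies were in 10 (41.7%, against 13.27%). The following stretches belong to Hmgcs1 as the gene with the SRE-like letters, Mvk as a gene with many CCAAT matches, Fasn as a fatty acid enzyme and Insig1 as the regulator with the largest fall in Pml knockout. They are cut to the bases that no annotated exon covers, and capitals mark motif matches on either strand. ATTGG is CCAAT on the opposite strand, and the last 2 matches of Fasn overlap.
Hmgcs1 (chr13:119690101-119690350, plus strand): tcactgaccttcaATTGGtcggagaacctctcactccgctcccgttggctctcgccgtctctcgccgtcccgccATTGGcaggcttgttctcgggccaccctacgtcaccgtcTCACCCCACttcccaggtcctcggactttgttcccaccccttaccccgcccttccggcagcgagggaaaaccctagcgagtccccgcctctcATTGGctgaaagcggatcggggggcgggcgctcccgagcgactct
Mvk (chr5:114444061-114444268, plus strand): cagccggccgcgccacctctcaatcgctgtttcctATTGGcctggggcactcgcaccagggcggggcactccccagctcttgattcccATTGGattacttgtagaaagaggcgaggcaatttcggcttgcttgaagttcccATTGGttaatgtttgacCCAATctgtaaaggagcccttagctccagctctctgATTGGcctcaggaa
Insig1 (chr5:28071162-28071362, plus strand): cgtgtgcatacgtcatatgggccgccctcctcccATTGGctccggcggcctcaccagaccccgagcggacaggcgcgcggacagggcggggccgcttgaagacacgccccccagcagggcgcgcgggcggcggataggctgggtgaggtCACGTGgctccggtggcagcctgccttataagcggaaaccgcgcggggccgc
Fasn (chr11:120824548-120824797, minus strand): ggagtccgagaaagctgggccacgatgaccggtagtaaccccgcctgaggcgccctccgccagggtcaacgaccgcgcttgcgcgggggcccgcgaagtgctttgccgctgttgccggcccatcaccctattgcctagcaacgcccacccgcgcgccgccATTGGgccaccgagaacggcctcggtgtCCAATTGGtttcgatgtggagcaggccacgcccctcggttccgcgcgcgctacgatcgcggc
The SRE-like match of Hmgcs1 begins 137 bases before the start, between CCAAT matches that begin 176 and 45 bases before it. Mvk carries 5 CCAAT matches in its stretch. Insig1 carries 1 E-box, beginning 101 bases before the start, and 1 CCAAT match. A match describes letters in the window and is not evidence of binding.

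Fold changes below are on the log2(value + 1) scale with limma's standard error (SE). A gene was called at an adjusted p under 0.05, with Benjamini-Hochberg adjustment over all genes tested in the table. With 2 libraries per group, groups often do not overlap. In the Pml table this held for 28 of the 31 genes and for 10 of 13 fatty acid oxidation genes. It also held there for 11 of 11 tested genes of sterol uptake, efflux and storage and 5 of 8 isoprenoid branch genes. With arsenite it held for 26 of the 31 genes. Of the same other lists it held for 13 of 13, 10 of 12 and 6 of 8. Its share over all genes is not given, so it serves as description only. The labels were checked first. In the Pml table the Pml transcript measured 49.8 and 45.1 FPKM in the wild-type libraries, against 32.0 and 33.5 in the knockout ones, lower but far from absent. In the Trim33 table Trim33 was at 20.1 and 23.5 RPKM-like units in wild type with activin A and at 2.53 and 2.79 in the knockout with activin A. With SB431542 the arrangement was opposite: 2.94 and 2.44 in the libraries labelled wild type, and 18.3 and 24.6 in the libraries labelled knockout. The Y-linked gene Eif2s3y followed Trim33 in this, at 38.3 to 41.0 in the 4 libraries that carry the labels knockout with SB431542 or wild type with activin A and at 0 to 0.143 in the others. Libraries of the SB431542 groups are therefore named by their labels.

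In Pml-knockout cells 22 of the 31 genes were lower than in wild type and none was higher by limma. At an unadjusted p under 0.05 there were 26 (83.9%, against 45.6% of all genes), of which Elovl6 alone was higher. Over all 11648 genes tested, 18.9% were called lower and 16.6% higher. Among the 8435 genes within the range of mean levels of the 31 genes, 21% were lower. The median log2 fold change of the 31 genes was -0.31, against -0.02 for all genes. Lower transcripts included the SREBP targets Insig1 and Scd1, the precursor genes Srebf1 and Srebf2, and the 7 mevalonate genes. Of these, the calls of Srebf2 (limma adjusted p = 0.0563 without the filter on low values), Mvd (0.136 without knockout replicate 1) and Idi1 (0.0788 to 0.159 under 4 alternatives) were lost under some alternatives. The RNA is from bulk cultures, so fewer cells of a type and less RNA per cell cannot be told apart.

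Among the regulators, Insig1 (chr5:28071363-28078662 in GRCm38) was at 25.9 and 22.2 FPKM in wild-type libraries and 11.8 and 11.3 in the knockout. That is a 1.99-fold lower level (log2 fold change -0.99 ± 0.08 SE, limma adjusted p = 5.67e-05), and no knockout library reached a wild-type one. Srebf1, which encodes the SREBP1 precursors, was at 20.03 and 18.5 FPKM in wild-type libraries and 13.7 and 14.7 in the knockout (log2 fold change -0.42 ± 0.07, limma adjusted p = 0.00291). Srebf2, which encodes the precursor more closely tied to sterol genes, was at 66.3 and 59.5 and then 48.3 and 51.7 (-0.32 ± 0.07, limma adjusted p = 0.00647). For both genes the 2 knockout libraries lay below the 2 wild-type libraries. Stard4, a sterol transfer protein gene, was lower by a log2 fold change of -0.27. Scap, at 13.9 and 12.4 FPKM in wild-type libraries and 11.8 and 11.5 in the knockout, was not called (limma adjusted p = 0.148). Insig2, the less sterol-dependent partner of Insig1, was at 8.51 and 10.2 and then 9.02 and 9.15, so its groups overlapped.

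All 7 mevalonate and isoprenoid genes were lower, with a median log2 fold change of -0.34. Fdps, which makes farnesyl diphosphate, was at 182 and 171 FPKM in wild type, the highest of the 31, and 120 and 124 in the knockout (-0.53 ± 0.05, limma adjusted p = 0.000136). Pmvk, the phosphomevalonate kinase, was lower by -0.42, Acat2, a thiolase at the entry of the pathway, by -0.40, and Hmgcs1, the HMG-CoA synthase, by -0.34. Mvk (-0.29), Idi1 (-0.25) and Mvd (-0.23) completed the arm. Acat2 shares 39.1% of its 50-base words with other transcripts, nearly all with the neighbouring Acat3. Idi1 (25.3%), Fdps (26.2%) and Hmgcs1 (11.6%) share words with other annotated transcripts as well. So do Acaca (30.4%) and Fdft1 (26.5%) of the other classes. The values of all these genes are uncertain in how reads were divided.

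From squalene to cholesterol, 4 of 10 genes were lower. Tm7sf2, a sterol reductase, was at 8.59 and 7.01 FPKM in wild-type libraries and 5.16 and 4.37 in the knockout (-0.61 ± 0.11, limma adjusted p = 0.00427). Cyp51, the lanosterol demethylase, was at 17.1 and 16.4 and then 11.1 and 11.3 (-0.54 ± 0.07, limma adjusted p = 0.000522). In both cases the groups did not overlap. Dhcr7, the last reductase of the route, was lower by -0.39 and Lss, the lanosterol synthase, by -0.31. The other 6 were not called: Fdft1 (-0.15), Sqle (-0.18), Nsdhl (-0.23), Hsd17b7 (-0.22), Ebp (0.05) and Sc5d (0.02). Ebp and Sc5d were the members of the sterol arm whose wild-type and knockout libraries overlapped.

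Of the 8 fatty acid enzymes, 7 were lower. Scd1, a stearoyl-CoA desaturase (chr19:44394455-44407879), was at 25.2 and 26.1 FPKM in wild-type libraries and 12.6 and 12.5 in the knockout. It was thus 1.96-fold lower (-0.97 ± 0.06, limma adjusted p = 1.23e-05). Its paralog Scd2, more abundant at 142 and 141 FPKM in wild type, was at 124 and 132 in the knockout (-0.15 ± 0.05, limma adjusted p = 0.0476). Fads2, which opens polyunsaturated fatty acid synthesis, was at 24.8 and 21.3 and then 15.4 and 16.2 (-0.52 ± 0.08, limma adjusted p = 0.00181), and Fads1 was lower by -0.41. Of the enzymes that build palmitate, Acaca (-0.43), Acly (-0.33) and Fasn (-0.24) were lower. The elongase Elovl6 was not called (0.19, limma adjusted p = 0.0842). The plot of levels in the Pml table shows the separation of the libraries for the genes given one by one.

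**Figure D1:**
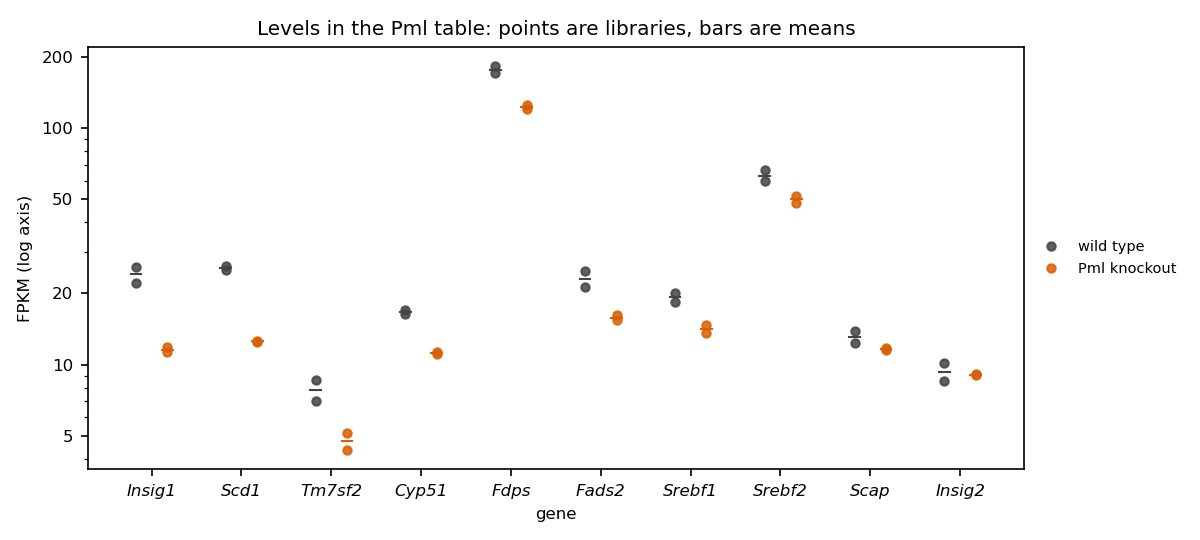
FPKM (log axis) of 6 pathway genes with the largest falls and of the SREBP regulators in each of the 4 libraries of the Pml table. Points are libraries and bars are means of 2; Insig1 and Scd1 lie 1.99-fold and 1.96-fold lower in the knockout on the log2(value + 1) scale, while the points of Insig2 overlap.

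In neighbouring pathways calls went in both directions, while 16.6% of all genes were called higher and 18.9% lower. Of 12 genes for sterol uptake, efflux and storage, 11 were tested, with 3 higher and 3 lower. Vldlr, a lipoprotein receptor (-0.99 ± 0.11), and Scarb1, the HDL receptor (-0.82 ± 0.08), were lower, and Soat1, which esterifies cholesterol, was higher (0.64 ± 0.08). Of 15 further genes of fatty acid synthesis and elongation, 4 were lower and 2 higher. Mid1ip1, an activator of acetyl-CoA carboxylase, was at 47.5 and 45.4 FPKM in wild-type libraries and 21.2 and 19.8 in the knockout (-1.14 ± 0.06). Elovl1, an elongase of very long chains, was higher (0.57 ± 0.07). Of 13 fatty acid oxidation genes, 2 were higher (Cpt1c, 0.72, and Acadl, 0.52) and 2 lower. In the isoprenoid branch, 1 of 8 was higher (Fntb, a farnesyltransferase subunit, 0.33) and none lower.

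Markers of other cell types differed between the same libraries. The summed level of 6 fibroblast markers was 106 to 108 FPKM in wild-type libraries and 530 to 560 in the knockout. Of these markers 5 of 6 were higher, led by Tagln, and Thy1 was lower (-0.65). The summed level of 5 trophectoderm markers was 34.4 to 37.2 and then 678 to 690, and all 4 tested were higher. Among them Cdx2 was at 0.810 and 0.612 FPKM in wild-type libraries and 13.4 and 13.4 in the knockout (3.07 ± 0.10). Elf5 was at 0 to 0.106 in every library and was not tested. The sum of 5 ES cell markers was 2696 to 2731 in wild type and 2583 to 2588 in the knockout, with Esrrb alone called lower. The sum of 7 primitive and visceral endoderm markers was 5.44 to 6.43 and then 2.91 to 3.52, with Gata4 lower (-0.57). Eif2s3y was at 16.2 and 20.6 FPKM in wild-type libraries and 1.10 and 0.753 in the knockout. The part of these in the lower lipid transcripts was not tested.

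With arsenite the 31 genes went in both directions: 7 were higher and 11 lower after 2 h, while 40.7% of the 12136 genes tested were called higher and 27% lower. The share of members higher was thus 22.6% and the share lower 35.5%. The median log2 fold change was -0.08, against 0.08 for all genes. Sterol enzymes were mainly lower or not called (1 of 17 higher, 7 lower), fatty acid enzymes went both ways (4 of 8 higher, 3 lower), and Scap and Srebf1 were higher while Insig1 was lower. Scaling by trimmed mean of M-values (TMM) moved the median of all genes from 0.08 to -0.07 and gave 5 members higher and 17 lower, with 0 sterol enzymes higher and 11 lower. The shares of 40.7% and 27% hold for the values as deposited. The counts with TMM have no share of all genes beside them.

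Scap, the SREBP escort, was at 9.46 and 8.50 RPKM in untreated cells and 19.8 and 20.9 with arsenite. It was 2.14-fold higher (1.10 ± 0.07, limma adjusted p = 8.31e-06), with no overlap between groups. An antisense transcript accounts for the 9.96% of its 50-base words that are shared, and whether counting used strand is not stated in the labels. Srebf1 was at 14.7 and 14.9 RPKM and then 24.2 and 24.9 (0.69 ± 0.05, limma adjusted p = 1.7e-05). Srebf2 was at 43.9 and 45.0 and then 45.1 and 47.6, and was not called (limma adjusted p = 0.265). Insig1 was at 15.4 and 15.6 and then 10.5 and 10.2 (-0.54 ± 0.06, limma adjusted p = 0.000113). Insig2, at 11.4 and 11.6 and then 10.7 and 10.3, was not called (limma adjusted p = 0.0887), and neither was Stard4 (0.07). The untreated and treated libraries of Insig1 did not overlap.

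In the mevalonate arm 4 of 7 genes were lower and none higher. Fdps was at 42.1 and 38.4 RPKM in untreated cells and 25.8 and 27.8 with arsenite (-0.57 ± 0.06, limma adjusted p = 0.000111). Idi1, the isopentenyl diphosphate isomerase, was at 5.79 and 5.75 and then 4.44 and 4.18 (-0.35 ± 0.08, limma adjusted p = 0.00447). Pmvk (-0.22) and Hmgcs1 (-0.19) were lower by less, and Mvk, Mvd and Acat2 were not called. From squalene to cholesterol 3 of 10 were lower. Sqle, the squalene epoxidase, was at 28.3 and 27.2 and then 22.3 and 22.8 (-0.29 ± 0.05, limma adjusted p = 0.00105). Nsdhl (-0.25) and Lss (-0.18) were the other two. Sc5d, a sterol desaturase, was the 1 higher gene, at 6.10 and 5.58 and then 8.16 and 7.07 (0.33 ± 0.09, limma adjusted p = 0.0113), a call lost with TMM and with quantile scaling.

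The desaturases split most widely. Scd1 was at 10.4 and 9.66 RPKM in untreated cells and 2.67 and 2.88 with arsenite, 2.92-fold lower (-1.55 ± 0.08, limma adjusted p = 3.53e-06). Its neighbour on the same chromosome, Scd2, was at 49.4 and 49.0 and then 54.9 and 62.1 (0.24 ± 0.06, limma adjusted p = 0.00764), a call lost with TMM. Fads2 was at 11.1 and 9.41 and then 16.4 and 18.4 (0.71 ± 0.09, limma adjusted p = 0.000267), and Fads1 was at 19.3 and 18.9 and then 23.5 and 25.6 (0.35 ± 0.06, limma adjusted p = 0.00104). None of these 4 genes had overlapping groups, which was also so for all 13 fatty acid oxidation genes and 6 of 8 isoprenoid branch genes tested. Among the enzymes of chain synthesis, Fasn was at 31.03 and 30.2 and then 38.6 and 41.1 (0.37 ± 0.05, limma adjusted p = 0.000337). Elovl6 was at 21.4 and 21.2 and then 15.4 and 15.4 (-0.44 ± 0.05, limma adjusted p = 0.000142). Acly, which supplies cytosolic acetyl-CoA, was lower by -0.20, and Acaca was not called (-0.23).

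**Figure D2:**
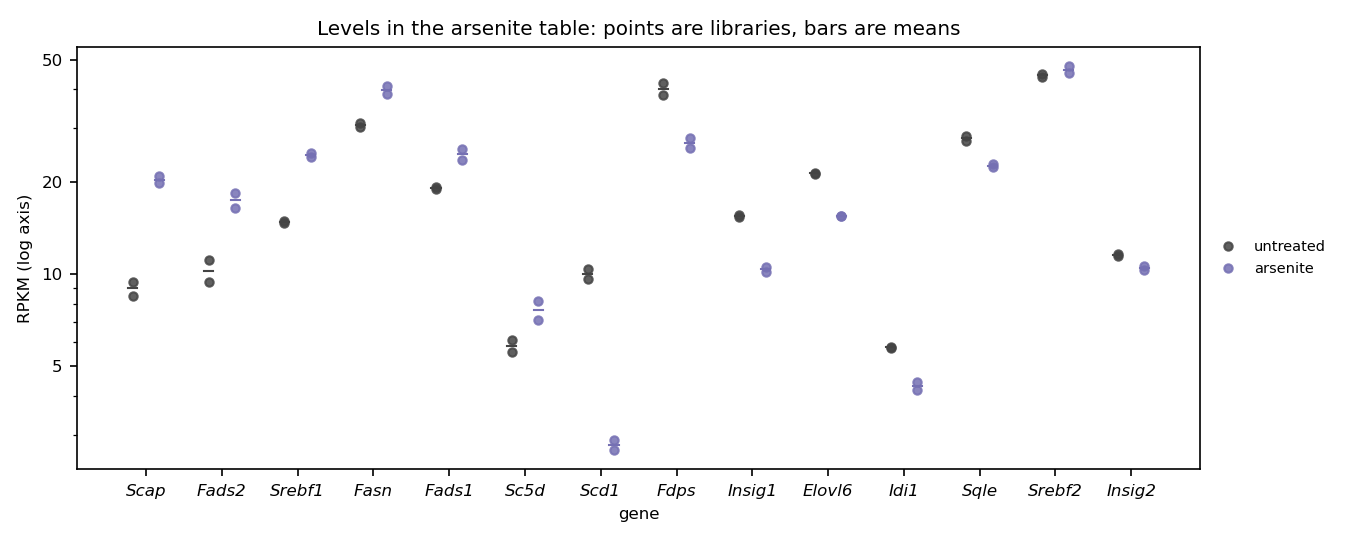
RPKM (log axis) of the pathway genes with the largest changes and of the SREBP regulators in each of the 4 libraries of the arsenite table. Points are libraries and bars are means of 2; Scap, Fads2 and Srebf1 lie higher with arsenite and Scd1 falls from 9.66 to 10.4 in untreated cells to 2.67 to 2.88.

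Other lipid genes changed in both directions with arsenite, while 40.7% of all genes were called higher and 27% lower. Of 13 fatty acid oxidation genes 10 were higher and 3 lower; Cpt1a, which admits fatty acids to mitochondria, was at 31.1 and 31.4 RPKM and then 63.0 and 66.9 (1.03 ± 0.04). Of 15 further synthesis and elongation genes 9 were higher and 3 lower, with Me1, the malic enzyme that makes NADPH (1.54 ± 0.08), and Lpin1 (1.20 ± 0.08) higher and Mid1ip1 (-1.38 ± 0.06) lower. Of 12 genes of sterol uptake, efflux and storage 4 were higher and 4 lower, with Nr1h3, a sterol-sensing nuclear receptor (1.26 ± 0.10), Soat1 (0.90 ± 0.05) and Lipa (0.89 ± 0.08) the largest. Of the genes for the SREBP proteases, Mbtps1 was higher (0.51 ± 0.04) and Mbtps2 lower (-0.20 ± 0.06). The isoprenoid branch had 1 of 8 higher and 5 lower, led by Fntb (-0.56). The sum of ES cell markers was 2499 to 2534 RPKM in untreated cells and 1109 to 1167 with arsenite, all 5 lower. The fibroblast sum was 67.9 to 68.3 and then 159 to 161. Of 4 fibroblast markers tested, 3 were higher (Vim, Tagln and Acta2) and Thy1 was lower (-0.69). The trophectoderm sum was 33.6 to 34.0 and then 102 to 104, with Elf5 at 0 in both arsenite libraries. The primitive and visceral endoderm sum was 6.71 to 6.78 and then 12.8 to 13.9. The part of these in the lipid genes was not tested.

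The Pml and arsenite tables share no library, so their calls could be set side by side. Of the 31 genes, 13 were called in both, 8 lower in both and 5 in opposite directions, which is 61.5% in the same direction. Over all genes called in both tables it was 70.8% (2042 of 2883). Those 2883 were out of 11162 genes tested in both, with 940 lower in both, 1102 higher in both and 841 in opposite directions. The 8 members lower in both were Hmgcs1, Pmvk, Idi1, Fdps, Lss, Insig1, Acly and Scd1. The 5 that were lower in Pml knockout and higher with arsenite were Srebf1, Fasn, Scd2, Fads1 and Fads2. Among these 13 genes, the Pml calls of Idi1, Lss, Fasn and Scd2 were lost under some alternatives. So were the arsenite calls of Hmgcs1, Pmvk, Lss and Scd2. Insig1 and Scd1 were among the 3 largest falls of the list in both tables, and Srebf1, Fasn and 3 of the 4 desaturases went opposite ways.

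**Figure D3:**
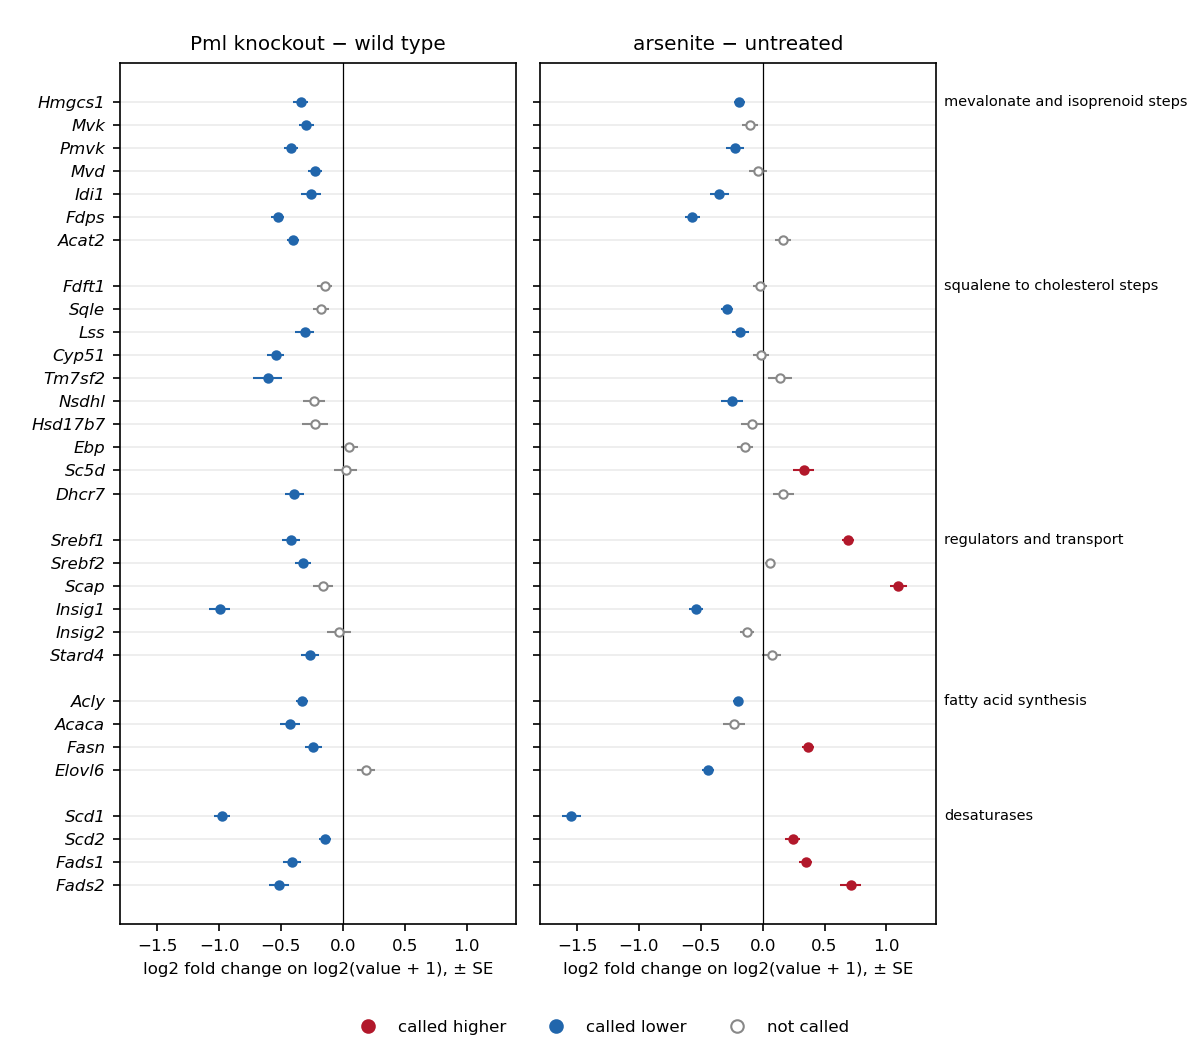
Log2 fold change on log2(value + 1) of all 31 genes, ordered by role, in Pml knockout against wild type (left) and arsenite against untreated (right). Points are estimates from 2 libraries per group, bars are standard errors and filled points passed the test; 22 genes are lower on the left, and on the right 7 are higher and 11 lower.

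In Trim33-knockout cells with activin A, 1 of the 31 genes was higher than in wild type and none was lower by limma. Over the 11914 genes tested, 6.61% were called higher and 2.82% lower. At an unadjusted p under 0.05 there were 7 members, 4 of them lower; that is 22.6%, against 26% of all genes. The gene called was Ebp, the sterol isomerase (chrX:8185329-8193512). It was at 10.0 and 10.3 RPKM-like units in wild type and 29.5 and 31.3 in the knockout, 2.81-fold higher (1.49 ± 0.15, limma adjusted p = 0.00115). The other 9 enzymes of its branch were not called, with log2 fold changes from -0.65 to 0.13.

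Cell type markers in this comparison showed a library that stood apart. Col1a1 was at 27.4 in knockout replicate 1 with activin A and 5.07 in replicate 2, and Acta2 at 23.2 and 6.55. The library labelled wild type with SB431542, replicate 1, also stood apart from its replicate 2, with Col1a1 at 22.4 and 3.597. Without knockout replicate 1 with activin A, the counts of members called were again 1 higher and 0 lower. Of 5 ES cell markers Zfp42 was higher in the knockout (1.23 ± 0.20, limma adjusted p = 0.00865), and Nanog was not called (1.03 ± 0.30, limma adjusted p = 0.0675). Of 6 fibroblast markers Thy1 was higher (0.91 ± 0.23, limma adjusted p = 0.0403). The summed ES cell markers were 1293 to 1474 in wild type and 1513 to 1520 in the knockout, the fibroblast sum 221 to 249 and then 215 to 355, the trophectoderm sum 128 to 172 and then 157 to 221, and the endoderm sum 2.75 to 3.02 and then 2.15 to 3.96, with Ttr at 0 throughout. With SB431542, Zfp42 (-1.13) and Nanog (-1.22) were lower in the libraries labelled knockout. The part of these markers in the member values was not tested.

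Cyp51 was at 27.7 and 28.5 in wild type and 15.9 and 19.4 in the knockout, just outside the threshold (-0.65 ± 0.18, limma adjusted p = 0.056). Scd2 was at 207 and 200 and then 142 and 124 (-0.61 ± 0.17, limma adjusted p = 0.0583). Fitting the activin A libraries alone, an alternative chosen after seeing the data, gave 2 members lower, as did TMM scaling and leaving out either library labelled knockout with SB431542. Of the regulators, Insig1 was at 46.9 and 47.4 in wild type and 36.3 and 38.1 in the knockout (-0.34 ± 0.14, limma adjusted p = 0.183). Srebf1 was at 18.3 and 16.3 and then 24.3 and 20.3 (0.35 ± 0.14, limma adjusted p = 0.167). Srebf2 was at 44.7 and 42.5 and then 36.8 and 37.0 (-0.23 ± 0.13, limma adjusted p = 0.302). Their groups did not overlap, but none was called. Scap, at 11.6 and 9.47 and then 12.7 and 10.9, and Insig2, at 4.79 and 7.17 and then 4.43 and 6.60, overlapped between groups.

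The libraries labelled knockout with SB431542, set against those labelled wild type, gave 2 members higher and 1 lower, against 3.01% and 6.55% of all genes. Ebp was at 30.0 and 29.8 in the libraries labelled wild type and 11.99 and 8.96 in those labelled knockout (-1.44 ± 0.15, limma adjusted p = 0.00128). Cyp51 was at 14.8 and 18.9 and then 23.7 and 31.6 (0.68 ± 0.18, limma adjusted p = 0.0486). Insig1 was at 35.1 and 41.1 and then 49.2 and 63.1 (0.54 ± 0.14, limma adjusted p = 0.0494). The calls of Cyp51 and Insig1 lie close to the threshold, and the number of members higher was 0 when any of 7 of the 8 libraries was left out and 4 without replicate 1 of those labelled knockout with SB431542. Srebf1 was at 21.5 and 18.3 and then 16.2 and 17.1, Srebf2 at 36.8 and 35.8 and then 36.7 and 46.3, Scap at 11.5 and 11.02 and then 8.35 and 12.2, and Insig2 at 4.88 and 6.54 and then 5.55 and 7.58; none was called. Ebp, Cyp51 and Insig1 thus had signs opposite to those with activin A, as Trim33 itself did. So did all other members except Tm7sf2, Dhcr7 and Acaca, although none of the others was called in either comparison. Log2 fold changes were negative for 23 of the 31 members with activin A and for 9 with SB431542. A test of the difference between both label effects called 2 members higher (Ebp and Mvd) and 6 lower, against 16.1% and 10.1% of all genes; it rests on the SB431542 labels that Trim33 contradicts.

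**Figure D4:**
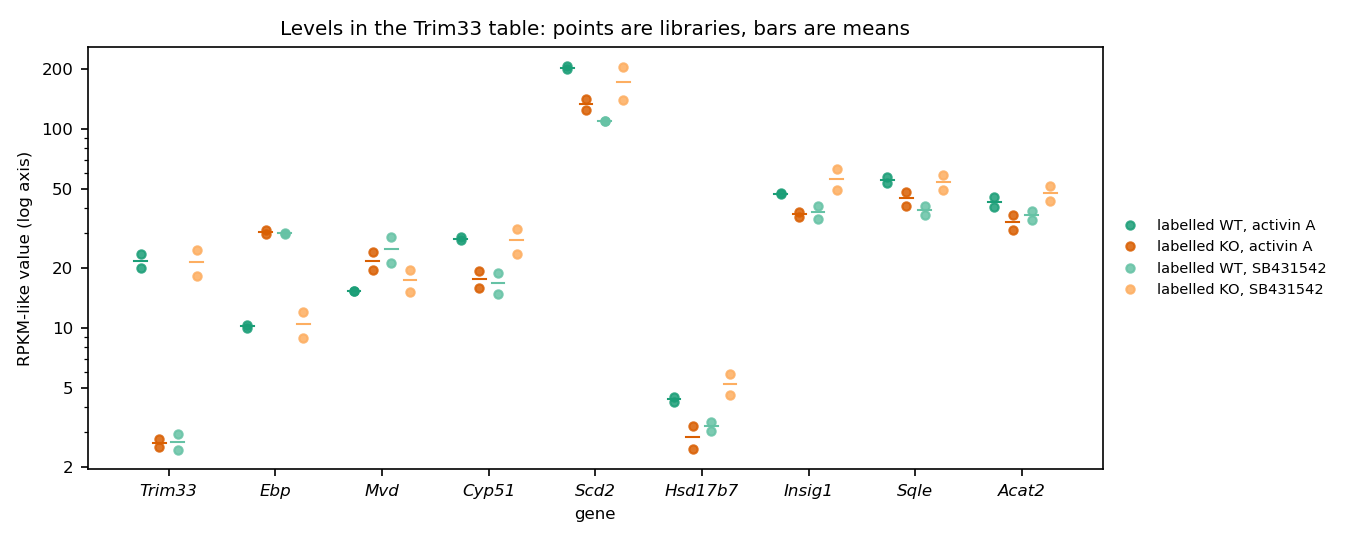
RPKM-like values (log axis) of Trim33 and 8 pathway genes in the 8 libraries of the Trim33 table. Points are libraries and bars are means of 2 per labelled group; Trim33 is low in the SB431542 libraries labelled wild type and the activin A libraries labelled knockout, and Ebp is high in these, at 29.5 to 31.3.

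Ebp was also set beside the genes next to it on the X chromosome, a choice made after its values were seen. With activin A, Was (1.64 ± 0.24), Porcn (1.33 ± 0.29), Tbc1d25 (1.17 ± 0.19) and Rbm3 (0.68 ± 0.14) were called higher in the knockout with Ebp. Suv39h1 (-0.03), Wdr13 (0.52), Ftsj1 (0.33) and Rbm3os (0.31) were not called. Of 413 X-linked genes tested, 13.8% were higher and 8.23% lower, against 6.26% and 2.61% of autosomal genes. Nsdhl, the other X-linked sterol enzyme of the list, was not called (-0.16). The part of X-linked expression in the Ebp value was not tested.

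In the 5 further lists, 5 of 54 tested genes were higher with activin A (9.26%, against 6.61% of all genes) and 2 lower (3.7%, against 2.82%). In the knockout, Mbtps1 (0.70), Acaa2, a thiolase of fatty acid oxidation (0.84), Mid1ip1 (0.80), Acacb (0.65) and Fntb (0.63) were higher, and Lrp8 (-0.71) and Pdss1 (-0.50) were lower. Mid1ip1 was thus higher here and lower in both other tables, on separate normalisations.

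**Figure D5:**
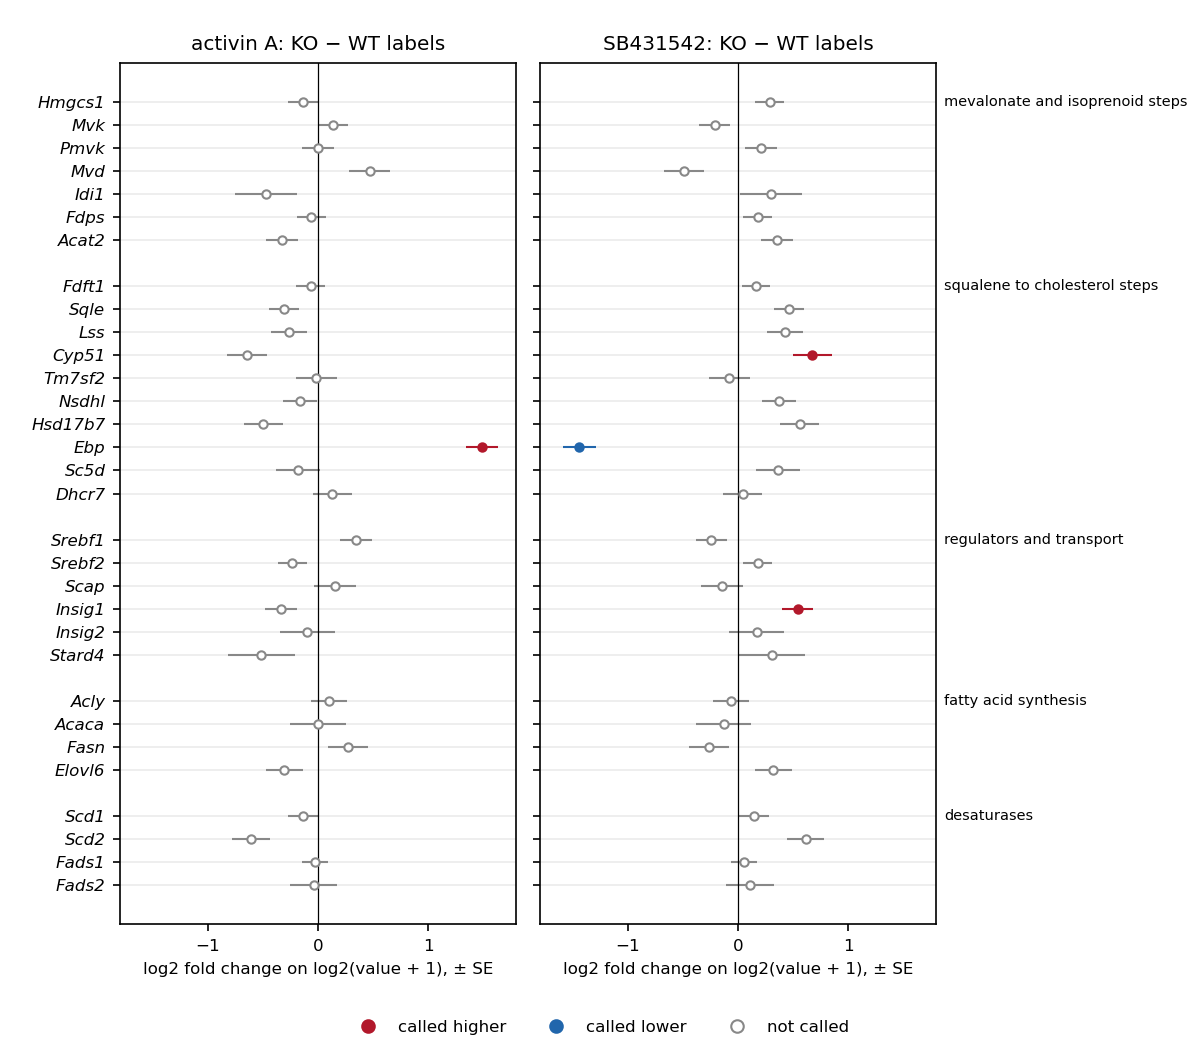
Log2 fold change on log2(value + 1) of all 31 genes, ordered by role, between libraries labelled Trim33 knockout (KO) and wild type (WT), with activin A (left) and with SB431542 (right). Points are estimates from 2 libraries per group, bars are standard errors and filled points passed the test; Ebp stands at 1.49 on the left and -1.44 on the right.

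Activin A against SB431542, as a mean over both genotype labels, left 0 of the 31 genes called by limma, and 0 at an unadjusted p under 0.05. Over all genes 0.109% were called, 13 higher and 0 lower, and 361 had an unadjusted p under 0.05. Log2 fold changes of the 31 genes ran from -0.25 to 0.27, and their 95% intervals from -0.73 (Stard4) to 0.55 (Scd2). This mean does not depend on which genotype label each SB431542 library carries.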

How the data were processed

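Library preparation used the Illumina TruSeq RNA kit, per the labels' protocols. Tools listed in the submitters' processing notes are Bowtie2 2.3.3, featureCounts 2.0.1, SAMtools 1.9, FastQC 0.11.5 and DESeq2, with mm10 as build and no role for each; whether counting used strand is not given. The authors deposited FPKM values in the Pml table and RPKM values in the arsenite table. No unit is named for the values deposited in the Trim33 table, which behave as RPKM. Low values of single-exon genes were whole reads within 0.05 reads in 91% to 94.7% of cases in these last tables, which gives 46700000 to 48500000 reads per arsenite-table library and 31200000 to 39500000 per Trim33-table library. The depth of the Pml table is unknown.

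After 27 date-like names per table were left out, genes with 2 or more libraries at 1 or above were tested on log2(value + 1), within each table (limma 3.58.1 in R 4.3.3, lmFit and eBayes with a trend, two-sided). The 8 libraries of the Trim33 table were fitted as 4 group means. The fit was also run on simulated data, with spreads shuffled among genes and few genes changed. That setting differs from these tables, so no support is drawn from it. Count models need counts and were not used. Members and lists were chosen with earlier results of these data known. Values in every library are given for up to 6 called members with the largest rise and 6 with the largest fall, provided their groups were apart, and for Srebf1, Srebf2, Scap, Insig1 and Insig2; of other lists, up to 3 called genes with the largest change are named, with a few more where a list held few calls. GENCODE (GRCm38, which is mm10) gave positions. Shared 50-base words were counted over its transcripts. Alternatives were another pseudocount, no filter, TMM and quantile scaling, a replicate block and leaving out each library. A gene of the SREBP processing and turnover list is not reported here, and that list's counts in the Pml and arsenite tables are left out.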

Additional observations from a re-analysis of the deposited data

Results flagged for a closer look

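The difference of the genotype-label effect between activin A and SB431542 (limma, log2 scale, label effect with activin A minus label effect with SB431542) passed the test for 8 pathway genes. Of the 31 members, 6.45% were called higher and 19.4% lower, against 16.1% and 10.1% of all genes tested. It was 2.93 ± 0.21 (SE) for Ebp (adjusted p = 6.85e-05) and 0.96 ± 0.26 for Mvd (adjusted p = 0.0267). It was -1.32 ± 0.25 for Cyp51 (adjusted p = 0.00621), -1.23 ± 0.24 for Scd2 (adjusted p = 0.00737) and -1.06 ± 0.25 for Hsd17b7 (adjusted p = 0.0157). It was -0.88 ± 0.20 for Insig1 (adjusted p = 0.0144), -0.77 ± 0.19 for Sqle (adjusted p = 0.0194) and -0.68 ± 0.20 for Acat2 (adjusted p = 0.039). Each label effect rests on 2 libraries against 2. Trim33 contradicts the genotype labels of the 4 SB431542 libraries, and its own label effect is -2.63 with activin A and 2.59 with SB431542, so these differences are given by label only. Ebp, Cyp51 and Scd2 passed the test under all alternatives run, and the other 5 lost it under at least 1.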

How the results depend on the processing

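No member reversed a called direction under any alternative run. Of the 22 members lower in Pml knockout, 14 passed under every alternative (Hmgcs1, Mvk, Pmvk, Fdps, Acat2, Cyp51, Dhcr7, Srebf1, Insig1, Acly, Acaca, Scd1, Fads1 and Fads2); the count lower was 15 without the filter on low values, 19 with quantile scaling and 17 to 21 without 1 library, and the count higher was 0 to 1 (1 without wild-type replicate 1). Of the 18 called with arsenite, 12 passed throughout; the count lower was 17 with TMM, 16 with quantile scaling and 7 to 10 without 1 library (7 without arsenite replicate 1), and the count higher 6 to 8. For Trim33 knockout with activin A, the count lower was 2 with TMM, 1 with quantile scaling, 2 with the activin A libraries alone and 0 to 2 without 1 library. For the libraries labelled knockout with SB431542, the count higher was 1 with a pseudocount of 0.1, 0 without the filter, 4 with TMM and 0 to 4 without 1 library. For the difference between label effects, the count higher was 1 without the filter and 1 with TMM, and 1 to 2 without 1 library; the count lower was 2 to 11 (2 without wild type with activin A replicate 2, 3 without knockout with activin A replicate 1, and 11 without knockout with SB431542 replicate 1). The cause of these changes was not tested. Member counts under alternatives, here and elsewhere, are given without the share of all genes called under the same setting. They describe how stable the calls were and are not set against the other genes.

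Replicate numbers were not taken to pair the libraries because the labels tie them to no shared batch. The correlation of deviations between same-numbered libraries was 0.0234 in the Pml table. In the Trim33 table it was -0.14 to 0.602, over 0.1 for 4 of 6 pairs of groups. It was highest between knockout with activin A and the libraries labelled wild type with SB431542. The main fit held no replicate term. A replicate block gave 21 members lower in Pml knockout and 1 lower in Trim33 knockout with activin A. No paired analysis was possible in the arsenite table because the untreated columns could be matched to their group only, not to single samples and their replicate numbers. Groups of 2 give little spread of their own, so errors borrow from the trend limma fits over genes, and leaving out a library leaves a lone sample that is assumed to vary like the others.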
